A study of Homo sapiens with 6 samples.

Results

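Glucose uptake, glycolysis, lactate handling and the hypoxia response share a set of 40 genes, which were followed in the breast cancer line MDA-MB-231, an established human line with neither estrogen nor progesterone receptor. The genes were chosen by symbol, with earlier results of these data known. Of them, 26 act in glucose and lactate handling, and 14 encode hypoxia-inducible factors (HIF), their oxygen sensors and other hypoxia genes. Each of the 40 had 1 row among 27451 gene rows. Cells were given H182 at 2 µM (3 libraries) or its vehicle DMSO (3 libraries), each for 2 h. H182 comes from a study of inhibitors of the transcription factor STAT3. Whether libraries of a group came from separate cultures is not given in the labels, so p-values rest on a spread among libraries that may be technical.

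Glycolysis splits glucose into pyruvate. Glucose enters through transporters of the SLC2A family, is trapped by hexokinase, and passes the committed step at phosphofructokinase, whose activator fructose 2,6-bisphosphate is made by the PFKFB enzymes. Cancer cells often turn much of the pyruvate into lactate and export it. HIF is a pair of an alpha subunit (HIF1A or EPAS1) with ARNT. In oxygen, the prolyl hydroxylases of the EGLN family mark the alpha subunit for destruction, so HIF is controlled largely at the protein level, and mRNA levels do not report its activity. HIF binds the short DNA motif ACGTG or GCGTG, and many glycolytic genes are known HIF targets.

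Expression was given as TPM, a length-corrected share of each library's transcripts that sums to a fixed total, so TPM may be compared between genes. Depth was unknown. Between 12230 and 12353 genes reached 1 TPM per library, and libraries correlated across genes at 0.9928 to 0.9942 within a group and 0.9787 to 0.9806 between groups. The line's markers VIM and CD44 stood at 3430 to 3701 and 957 to 1009 TPM in H182, against 4002 to 4051 and 1129 to 1188 TPM in DMSO. Both fell in TPM, and CD44 also under median-of-ratios scaling (log2 change -0.13, adjusted p = 0.0246, limma). EGFR, which fell in TPM only, averaged 97.7 TPM in H182 and 114 TPM in DMSO. ZEB1 averaged 37.9 TPM in H182 and 37.8 TPM in DMSO and did not pass. Of 8 luminal and epithelial markers, ESR1, PGR and CDH1 stayed under 0.3 TPM in all libraries, and FOXA1 averaged 1.31 TPM in H182 and 0.437 TPM in DMSO. The other 4 were detected at higher levels: KRT18 averaged 423 TPM in H182 and 466 TPM in DMSO, ERBB2 26.3 TPM in H182 and 27.5 TPM in DMSO, EPCAM 13.52 TPM in H182 and 14.95 TPM in DMSO, and GATA3, which fell in TPM and also under median-of-ratios scaling, 6.75 TPM in H182 and 10.3 TPM in DMSO. The 6 fibroblast and endothelial markers summed to 8.16 to 8.78 TPM in H182 and 8.07 to 9.81 TPM in DMSO. The 5 leukocyte markers summed to 1.46 to 2.80 TPM in H182 and 2.48 to 2.69 TPM in DMSO.

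Treatment for 2 h with H182 raised a few of these genes strongly and left the enzymes of glycolysis near their DMSO level. The highest ratios of mean TPM among the genes that rose belonged to the glucose transporter gene SLC2A3 (4.77-fold), the ankyrin repeat gene ANKRD37 (4.29-fold), the vasodilator peptide gene ADM (3.16-fold) and PFKFB3 (1.95-fold), which makes the activator of phosphofructokinase. VEGFA, the angiogenic growth factor, rose 1.62-fold, NDRG1 1.40-fold and P4HA2 1.29-fold. HK1, HK2, SLC2A1 and 6 further glycolytic genes fell to between 0.841 and 0.925 of their DMSO level in TPM, and all 9 calls were lost when the libraries were scaled by the median of gene ratios. With quantile normalization 6 of the 9 held (all but HK1, PFKP and ALDOA). HIF1A, EPAS1 and the measured oxygen sensors did not pass the test in TPM.

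Of the 40 genes, 38 averaged 1 TPM or more across all 6 libraries and were tested with limma on log2(TPM + 1), with Benjamini-Hochberg adjustment over all 12294 genes tested and a threshold of 0.05. SLC16A1 and CA9 lay below that level. Of the 38, 7 rose, 9 fell and 22 did not pass. Of all genes tested, 5.3% rose and 18.7% fell, so over the 38 the 9 falls lie near the background share. All 9 were among the 25 tested glucose and lactate genes, where their share lies above it. Of the rises, 3 were at least 2-fold on that scale (SLC2A3, ANKRD37 and ADM), a size reached by 1.3% of all genes. In TPM the H182 libraries lay wholly above the DMSO libraries in 9 members and wholly below in 14, against 8.67% and 32.7% of all genes tested. The median change was -0.06 for the members and -0.09 for all genes on the log2 scale.

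Because the total is fixed, TPM falls for unchanged genes when abundant transcripts rise. With median-of-ratios scaling, which sets the typical gene to no change, the median over all genes was 0.00 and that of the members 0.05. On that scale 10 members rose and none fell by limma, and 4 had an unadjusted p under 0.05 on the lower side. Of all genes, 7.88% rose and 6.78% fell with that scaling. The 3 added rises were EPAS1, BNIP3 and KDM3A.

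**Figure D1:**
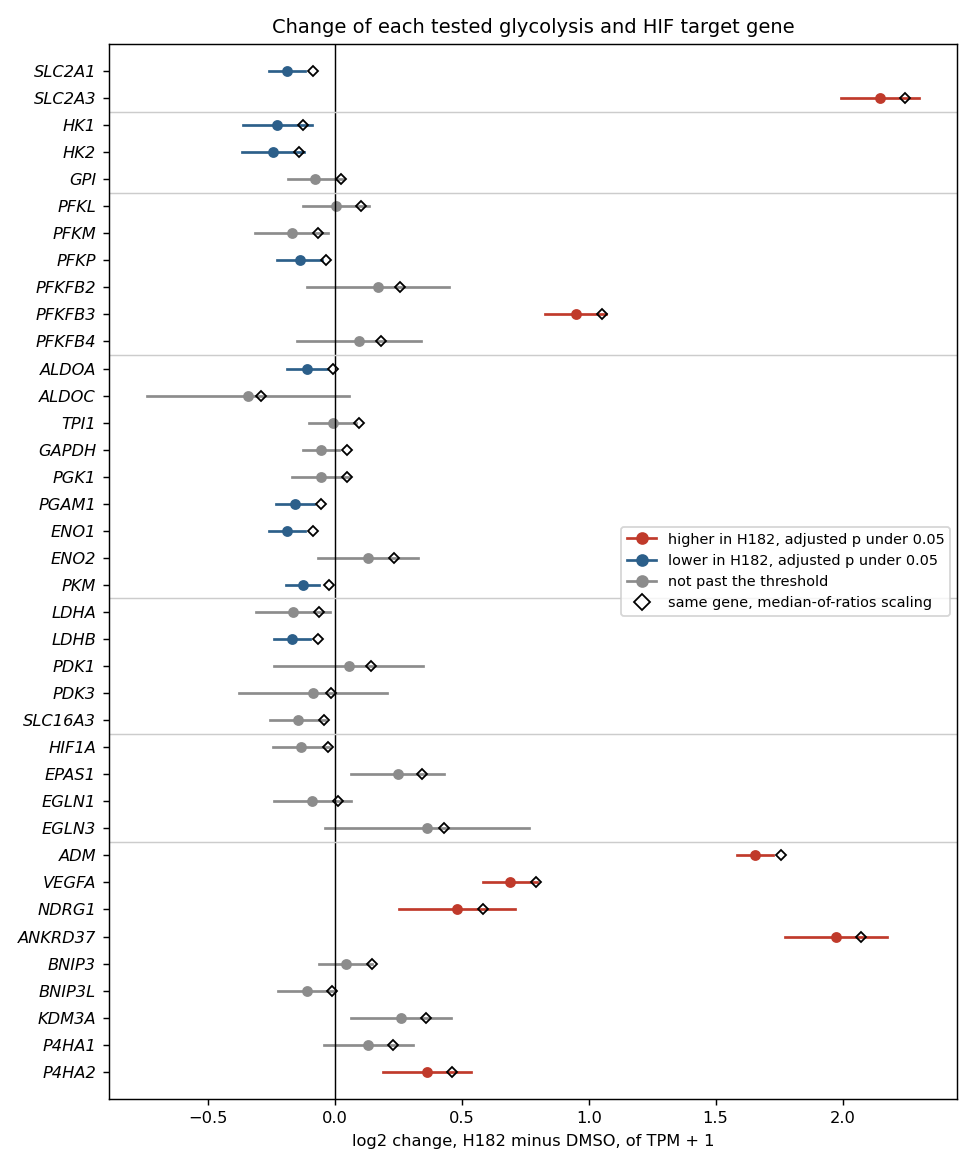
Log2 change of TPM + 1, H182 minus DMSO, for the 38 tested genes, grouped by role from glucose transporters at the top to other hypoxia genes at the bottom. Filled points are the limma estimates in TPM with 95% confidence intervals (3 libraries per group), and open diamonds the same genes with median-of-ratios scaling; SLC2A3, ANKRD37 and ADM lie farthest to the right, while the glycolytic enzymes cluster near 0.

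Promoters of raised genes are shown with the HIF motif ACGTG or GCGTG, on either strand, in capitals; a palindromic CACGTG, the E-box, holds it on both strands and counts as 2 matches. The windows run from 250 bases before to 50 after a RefSeq start (GRCh38.p14), and 34 of the 40 genes matched by symbol, with 62 starts. SLC2A3, PFKFB2, SLC16A1, VEGFA, NDRG1 and BNIP3L had none in the table. ANKRD37, ADM and PFKFB3 are shown because they rose most among the matched genes, and LDHA, the lactate dehydrogenase gene, because its window held 6 matches while its mRNA did not pass the test.
ADM, chr11:10304823-10305122, plus strand: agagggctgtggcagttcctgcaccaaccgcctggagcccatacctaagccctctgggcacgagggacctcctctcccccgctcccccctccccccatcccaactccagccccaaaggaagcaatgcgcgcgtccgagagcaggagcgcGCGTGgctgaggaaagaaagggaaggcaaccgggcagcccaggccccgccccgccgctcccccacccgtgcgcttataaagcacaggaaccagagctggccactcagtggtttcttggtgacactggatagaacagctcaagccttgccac
ANKRD37, chr4:185396591-185396890, plus strand: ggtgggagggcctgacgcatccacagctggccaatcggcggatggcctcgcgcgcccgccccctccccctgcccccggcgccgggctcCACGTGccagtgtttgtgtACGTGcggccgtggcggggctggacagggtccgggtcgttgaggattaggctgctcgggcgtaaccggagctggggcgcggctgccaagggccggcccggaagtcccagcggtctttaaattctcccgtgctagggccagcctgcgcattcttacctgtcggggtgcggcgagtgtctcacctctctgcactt
PFKFB3 downstream start, chr10:6202682-6202981, plus strand: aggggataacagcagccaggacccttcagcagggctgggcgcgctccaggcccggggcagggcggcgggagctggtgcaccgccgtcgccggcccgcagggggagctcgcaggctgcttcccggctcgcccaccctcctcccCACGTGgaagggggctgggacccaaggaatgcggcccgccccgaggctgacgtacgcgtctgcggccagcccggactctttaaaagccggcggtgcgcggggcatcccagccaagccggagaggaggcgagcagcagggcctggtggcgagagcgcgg
LDHA, chr11:18394313-18394612, plus strand: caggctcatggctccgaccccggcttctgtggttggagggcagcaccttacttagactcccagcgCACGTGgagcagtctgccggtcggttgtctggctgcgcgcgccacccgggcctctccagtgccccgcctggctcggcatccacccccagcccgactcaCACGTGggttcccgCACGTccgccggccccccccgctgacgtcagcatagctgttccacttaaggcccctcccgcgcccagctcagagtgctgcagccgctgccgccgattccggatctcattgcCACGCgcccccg

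A HIF motif was in 42 of the 62 windows (67.7%), against 48.4% of the 35116 RefSeq windows available. Those windows lack some genes and were not limited to expressed ones. It was in 4 of 5 windows of genes that rose (all but P4HA2), 13 of 21 windows of genes that fell in TPM, 24 of 35 windows of genes that did not pass, and the window of the untested CA9. Genes with several starts give several windows, up to 7 for HK1 and PFKM. Windows of the same gene can overlap and hold the same match, as in KDM3A and PFKM, so the windows are not independent. ANKRD37 had 3 matches, the first beginning 162 bases before the start, ADM had 1 at 101 bases before it, and the downstream start of PFKFB3 had 2 in a single CACGTG. The windows of LDHA above and of BNIP3, neither past the test in TPM, held 6 each, and so did 1 window of HK2, which fell. The CACGTG E-box, bound by MYC and its partners, was in 8 of 62 windows (12.9%, against 7.26% of all). The core heat shock motif GAANNTTC or TTCNNGAA was in 1 of 62 (1.61%, against 13.5%), that of PGK1, and a 3-unit form was in none. A STAT motif, TTCNNNGAA, was in 2 of 62 (3.23%, against 7.66%), of HK1 and PDK1. A match describes these letters and not binding, and elements outside the windows were not searched.

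The glucose transporters moved in opposite directions in TPM. SLC2A3 encodes GLUT3, a high-affinity transporter (ENSG00000059804.15, chromosome 12, 7919230 to 7936275, GRCh38, minus strand, 10 exons in the longest transcript). It stood at 47.6, 46.8 and 51.7 TPM in H182, against 10.2, 10.4 and 10.02 TPM in DMSO. Every H182 library was more than 4 times as high as every DMSO library. The log2 change was 2.15 (SE 0.068, adjusted p = 1.75e-08, limma), and 1.82 to 2.25 over 18 alternative settings. The near-identical paralog SLC2A14, with which reads may be shared, was listed at 0.04, 0.04 and 0 TPM in H182, against 0 TPM in all DMSO libraries. SLC2A1 encodes GLUT1, the widespread basal transporter (ENSG00000117394.19, chromosome 1, 42925375 to 42959176, minus strand). It had 501, 514 and 510 TPM in H182, against 572, 583 and 584 TPM in DMSO, and the groups did not overlap. Its log2 change of -0.19 (SE 0.031, adjusted p = 0.00247) became -0.09 with median-of-ratios scaling (adjusted p = 0.106). SLC2A1 thus remained the more abundant transporter mRNA in both groups. The ratio of SLC2A3 to SLC2A1, which does not depend on library scaling, averaged 0.0957 ± 0.00533 in H182 and 0.0176 ± 0.00038 in DMSO (SD, n = 3 each).

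Hexokinase genes fell slightly in TPM. HK1, the housekeeping isozyme, had 86.7, 93.2 and 97.5 TPM in H182, against 102, 108 and 115 TPM in DMSO (log2 change -0.23, adjusted p = 0.0233, limma). HK2, the isozyme often raised in tumours, had 35.4, 37.5 and 37.2 TPM in H182, against 43.1, 44.5 and 43.3 TPM in DMSO (log2 change -0.24, adjusted p = 0.0106). In both genes all H182 libraries lay below all DMSO libraries. With median-of-ratios scaling HK1 was at -0.12 (adjusted p = 0.169) and HK2 at -0.14 (adjusted p = 0.0845), neither past the threshold. HK1 also lost its call without H182 replicate 1 (adjusted p = 0.0745), H182 replicate 2 (0.0611), DMSO replicate 2 (0.0587) or DMSO replicate 3 (0.0778). The ratio of HK2 to HK1 overlapped between the groups, at 0.397 ± 0.014 in H182 and 0.404 ± 0.0243 in DMSO. An antisense RNA overlapping HK2, AC019069.1, averaged 2.35 TPM in H182 and 3.61 TPM in DMSO, while the counting's use of strand is not given. GPI, which converts glucose 6-phosphate to fructose 6-phosphate, averaged 239 TPM in H182 and 252 TPM in DMSO and did not pass (log2 change -0.08, 95% interval -0.19 to 0.03).

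Among the genes of the committed step, PFKFB3 was the member that rose. PFKFB3 makes fructose 2,6-bisphosphate with high kinase activity (ENSG00000170525.18, chromosome 10, 6144934 to 6254644, plus strand, 18 exons in the longest transcript). It had 79.6, 79.6 and 87.1 TPM in H182, against 41.5, 42.5 and 42.1 TPM in DMSO. The lowest H182 library was well above the highest DMSO library. The log2 change was 0.95 (SE 0.053, adjusted p = 1.67e-06, limma), with 0.89 to 1.05 over the alternatives. Its relatives PFKFB2 and PFKFB4 were far lower in level, at 4.87 to 6.40 and 4.69 to 5.36 TPM in H182, against 4.49 to 5.36 and 4.53 to 4.89 TPM in DMSO, and overlapped between groups. Their log2 changes were 0.17 (95% interval -0.11 to 0.45) and 0.09 (-0.15 to 0.34), and neither passed. PFKFB2 overlaps YOD1 on the other strand, which averaged 15.3 TPM in H182 and 12.7 TPM in DMSO. The ratio of PFKFB3 to PFKFB4 was 16.2 ± 0.739 in H182 and 9 ± 0.454 in DMSO (SD, n = 3 each).

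Phosphofructokinase is encoded by the platelet, liver and muscle genes PFKP, PFKL and PFKM. PFKP, the most abundant of them here, had 206, 218 and 213 TPM in H182, against 234, 228 and 238 TPM in DMSO. It fell in TPM by 0.14 on the log2 scale (adjusted p = 0.0312, limma), with non-overlapping groups. With median-of-ratios scaling PFKP was at -0.04 and not called (adjusted p = 0.611). The call was also lost without any single library except H182 replicate 2, where its adjusted p reached 0.0871 (H182 replicate 1), 0.0551 (H182 replicate 3), 0.0801 (DMSO replicate 1), 0.0509 (DMSO replicate 2) and 0.1003 (DMSO replicate 3). PFKL overlapped, at 49.4 to 56.2 TPM in H182 and 52.1 to 53.1 TPM in DMSO, with a log2 change of 0.00 (95% interval -0.13 to 0.13). PFKM lay at 45.1 to 48.7 TPM in H182 and 48.9 to 56.0 TPM in DMSO (-0.17, adjusted p = 0.0815). PFKM did not pass although its groups did not overlap.

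The enzymes from aldolase to pyruvate kinase included the most abundant member and, where they passed, stood at 0.877 to 0.925 of their DMSO level. In this group of 9, 4 fell in TPM, 5 did not pass and none was called with median-of-ratios scaling. The lower share over all genes tested was 18.7% in TPM and 6.78% with that scaling. ENO1, the main enolase (ENSG00000074800.13, chromosome 1, 8861000 to 8879250, minus strand), had 1501, 1571 and 1567 TPM in H182, against 1770, 1781 and 1736 TPM in DMSO. Its log2 change was -0.19 (SE 0.032, adjusted p = 0.00268, limma) and -0.09 with median-of-ratios scaling (adjusted p = 0.114). PGAM1, phosphoglycerate mutase, had 474, 496 and 494 TPM in H182, against 537, 544 and 552 TPM in DMSO (log2 change -0.16, adjusted p = 0.00932). PKM, pyruvate kinase, had 1351, 1382 and 1357 TPM in H182, against 1463, 1501 and 1504 TPM in DMSO (log2 change -0.13, adjusted p = 0.0134). ALDOA, the main aldolase, had 950, 988 and 1000.03 TPM in H182, against 1028, 1063 and 1084 TPM in DMSO (log2 change -0.11, adjusted p = 0.0453). In these 4 genes the H182 libraries lay below the DMSO libraries without overlap. The ALDOA call was lost without H182 replicate 1 (adjusted p = 0.112), H182 replicate 2 (0.0947), DMSO replicate 1 (0.0509), DMSO replicate 2 (0.12) or DMSO replicate 3 (0.149), and the PKM call without DMSO replicate 2 (adjusted p = 0.0537) or DMSO replicate 3 (0.0556).

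GAPDH, often used as a reference gene, was the most abundant member, at 4234, 4248 and 4050 TPM in H182, against 4293, 4331 and 4392 TPM in DMSO. Its log2 change was -0.05 (95% interval -0.12 to 0.01, adjusted p = 0.225, limma), 0.05 with median-of-ratios scaling and -0.16 with quantile normalization, where it passed (adjusted p = 0.0138). TPI1 (592 to 621 TPM in H182, 589 to 643 TPM in DMSO) and PGK1 (797 to 845 TPM in H182, 826 to 927 TPM in DMSO) overlapped between groups. Neither passed, at -0.01 and -0.06 on the log2 scale. ENO2, the neuronal enolase, lay at 34.1 to 44.1 TPM in H182 and 35.2 to 36.8 TPM in DMSO (log2 change 0.13, 95% interval -0.07 to 0.33). It passed without H182 replicate 1 (0.24, adjusted p = 0.0403). ALDOC, the brain aldolase, was near the level needed for testing, at 0.52 to 1.02 TPM in H182 and 1.11 to 1.51 TPM in DMSO, reached the filter through its DMSO libraries, and did not pass. Pseudogenes named after their parent genes are annotated for many of these enzymes, 62 for GAPDH alone. None of these pseudogenes had a row in the table used here, so reads shared with them may be part of the parents' values.

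**Figure D2:**
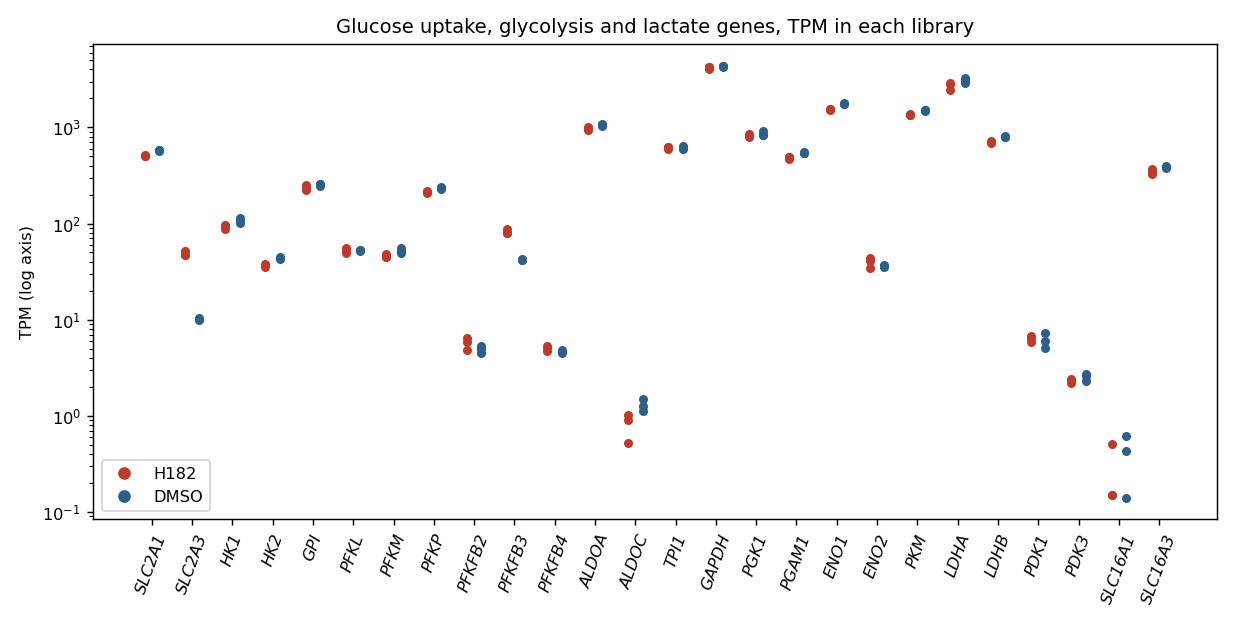
TPM on a log axis in each library for the 26 glucose and lactate genes in pathway order, with H182 left of DMSO for each gene. SLC2A3 and PFKFB3 stand apart between the groups, while most other genes lie at nearly the same height; SLC16A1 lies below 1 TPM in all libraries.

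The 17 genes of hexokinase to pyruvate kinase plus lactate dehydrogenase together held 1.42 ± 0.035% of all TPM in H182 and 1.53 ± 0.0255% in DMSO (SD, n = 3 each). The H182 libraries ranged from 1.38% to 1.45% and the DMSO libraries from 1.52% to 1.56%, without overlap. A sum of shares in TPM carries the same dependence on scaling as its genes. Of the 25 tested glucose and lactate genes, 18 had a TPM estimate below 0, and 14 with median-of-ratios scaling, against 71.2% and 49.5% of all genes tested.

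Lactate dehydrogenase interconverts pyruvate and lactate. LDHB, the heart-type subunit, had 695, 702 and 720 TPM in H182, against 791, 807 and 786 TPM in DMSO. Its log2 change in TPM was -0.17 (SE 0.032, adjusted p = 0.00447, limma), without overlap of the groups, and -0.07 with median-of-ratios scaling (adjusted p = 0.18). LDHA, the muscle-type subunit and a known HIF target, had 2476, 2899 and 2843 TPM in H182, against 3063, 2860 and 3285 TPM in DMSO. The LDHA groups overlapped, and its log2 change of -0.17 did not pass (95% interval -0.31 to -0.02, adjusted p = 0.0972). With quantile normalization LDHA was at -0.31 and passed (adjusted p = 0.0131). The ratio of LDHB to LDHA was 0.259 ± 0.0199 in H182 and 0.26 ± 0.0215 in DMSO.

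PDK1 and PDK3, kinases that shut off pyruvate dehydrogenase, were low and overlapped, at 5.84 to 6.82 and 2.20 to 2.40 TPM in H182, against 5.12 to 7.28 and 2.30 to 2.69 TPM in DMSO. Their log2 changes of 0.05 (95% interval -0.24 to 0.35) and -0.09 (-0.38 to 0.20) did not pass. SLC16A3, the lactate exporter MCT4, had 325, 348 and 369 TPM in H182, against 375, 384 and 392 TPM in DMSO. Its groups did not overlap, and its log2 change of -0.15 missed the threshold (adjusted p = 0.0537, limma). SLC16A3 passed without H182 replicate 3 (-0.19, adjusted p = 0.0183), and was at -0.04 with median-of-ratios scaling (adjusted p = 0.55). SLC16A1, the transporter MCT1, was at 0.15 to 0.51 TPM in H182 and 0.14 to 0.61 TPM in DMSO and was not tested. MCT4 was thus the lactate transporter mRNA detected at a high level of this pair.

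The HIF subunits and their sensors showed no call in TPM by limma, in 4 genes tested, of which EPAS1 was higher and HIF1A lower at an unadjusted p under 0.05. HIF1A had 215, 208 and 233 TPM in H182, against 247, 239 and 233 TPM in DMSO. Its H182 replicate 3 reached the DMSO range, and its log2 change was -0.13 (95% interval -0.24 to -0.02, adjusted p = 0.0792). Without H182 replicate 3 HIF1A passed (-0.18, adjusted p = 0.0213), while median-of-ratios scaling put it at -0.03 (adjusted p = 0.731). HIF1A-AS2, an RNA from the opposite strand that overlaps HIF1A, averaged 8.51 TPM in H182 and 6.38 TPM in DMSO. EPAS1, the HIF-2 alpha subunit, had 15.1, 14.9 and 16.8 TPM in H182, against 12.8, 13.5 and 12.6 TPM in DMSO. All H182 libraries were above all DMSO libraries, with a log2 change of 0.25 (SE 0.082, adjusted p = 0.0549). With median-of-ratios scaling EPAS1 was at 0.34 and passed (adjusted p = 0.0151). EPAS1 gained a call in 5 of the 18 alternatives. Among them were a filter at a mean of 5 TPM (adjusted p = 0.0492) and the fit without the variance trend (0.0466). The ratio of EPAS1 to HIF1A was 0.0713 ± 0.00111 in H182 and 0.0542 ± 0.00236 in DMSO.

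EGLN1, the main oxygen sensor PHD2, overlapped between groups at 31.7 to 35.7 TPM in H182 and 33.9 to 37.4 TPM in DMSO (log2 change -0.09, 95% interval -0.24 to 0.06). EGLN3, the sensor PHD3 and itself a HIF target, was low, at 1.88, 2.84 and 3.19 TPM in H182, against 1.57, 2.21 and 1.65 TPM in DMSO. Its log2 change of 0.36 had a wide interval (-0.04 to 0.76) and did not pass (adjusted p = 0.172, limma).

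The other hypoxia genes held most of the rises. Of 9 tested, 5 rose and 4 did not pass, and with median-of-ratios scaling 7 rose. The higher share over all genes tested was 5.3% in TPM and 7.88% with that scaling. ADM encodes adrenomedullin, a secreted vasodilator peptide (ENSG00000148926.9, chromosome 11, 10304680 to 10307397, plus strand, 5 exons in the longest transcript). It had 637, 640 and 647 TPM in H182, against 203, 202 and 203 TPM in DMSO. Within each group the libraries lay within a few percent of each other, and the groups were far apart. The log2 change was 1.66 (SE 0.032, adjusted p = 5.16e-10, limma), the smallest p among the members. ADM was the most abundant of these 10 genes in both groups.

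ANKRD37, an ankyrin repeat protein known as a HIF target, lies on chromosome 4 (ENSG00000186352.8, 185396021 to 185400628, plus strand). It had 33.9, 41.4 and 34.3 TPM in H182, against 8.56, 8.30 and 8.68 TPM in DMSO. The log2 change was 1.98 (SE 0.09, adjusted p = 3.03e-07, limma), with 1.62 to 2.08 over the alternatives. UFSP2, which overlaps ANKRD37 on the other strand, had an average of 29.2 TPM in H182 and 33.6 TPM in DMSO. UFSP2 thus did not share the rise of ANKRD37 in level.

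VEGFA, the main angiogenic growth factor (ENSG00000112715.20, chromosome 6, 43770184 to 43786487, plus strand), had 130, 131 and 142 TPM in H182, against 82.3, 82.8 and 83.7 TPM in DMSO. Its log2 change was 0.69 (SE 0.048, adjusted p = 7.96e-06, limma). NDRG1, a stress-responsive protein raised by hypoxia and metal chelation, had 40.1, 48.6 and 45.5 TPM in H182, against 29.6, 36.9 and 29.1 TPM in DMSO. The groups of NDRG1 came closest at 40.1 TPM in H182 and 36.9 TPM in DMSO, and its log2 change was 0.48 (SE 0.101, adjusted p = 0.00845). P4HA2, a subunit of the collagen prolyl hydroxylase (ENSG00000072682.18, chromosome 5, 132191838 to 132295315, minus strand), had 28.9, 30.0 and 31.7 TPM in H182, against 22.7, 21.7 and 25.6 TPM in DMSO. Its log2 change was 0.36 (SE 0.077, adjusted p = 0.009). The genes PDLIM4 and SLC22A4 on the other strand overlap P4HA2 and averaged 21.4 and 6.07 TPM in H182, against 24.3 and 6.47 TPM in DMSO. All 7 members that rose kept their direction and their call under all 18 alternatives run.

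**Figure D3:**
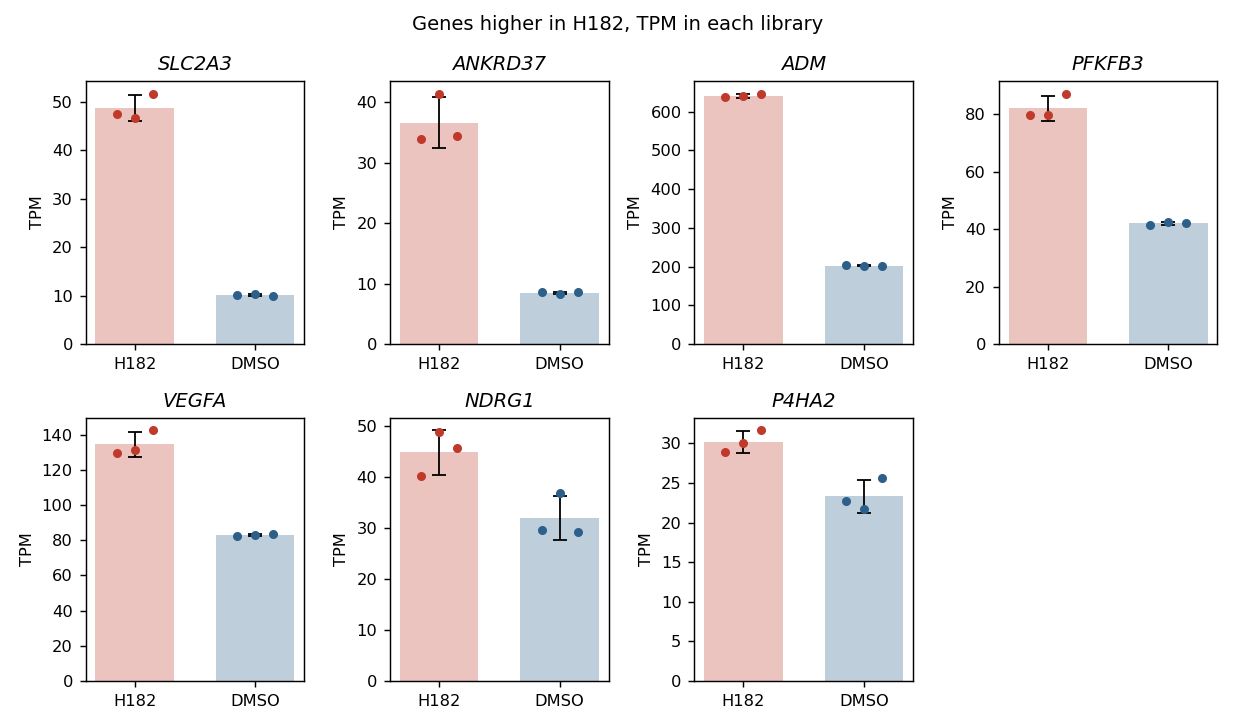
TPM in each library for the 7 genes that rose, in order of log2 change; bars are group means, error bars SDs over 3 libraries and points single libraries, with H182 left of DMSO. No H182 library of these genes reaches down to a DMSO library, and the gap is narrowest for NDRG1 and P4HA2.

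Not every known hypoxia gene moved. P4HA1, an isozyme of P4HA2, lay at 22.9 to 27.6 TPM in H182 and 22.6 to 23.3 TPM in DMSO (log2 change 0.13, 95% interval -0.04 to 0.31) and did not pass. KDM3A, a histone demethylase, had 24.0, 20.2 and 20.0 TPM in H182, against 17.6, 18.6 and 16.8 TPM in DMSO, without overlap. Its log2 change of 0.26 missed the threshold in TPM (adjusted p = 0.0569, limma) and passed at 0.36 with median-of-ratios scaling (adjusted p = 0.0309). KDM3A gained a call in 3 of the 18 alternatives, among them a filter at a mean of 5 TPM (adjusted p = 0.0484). BNIP3 and BNIP3L, mitophagy receptors, ranged from 128 to 140 and from 86.3 to 88.2 TPM in H182, against 126 to 131 and 88.8 to 98.5 TPM in DMSO. BNIP3 passed with median-of-ratios scaling (0.15, adjusted p = 0.046). CA9, carbonic anhydrase IX and a standard hypoxia marker, was listed at 0, 0.10 and 0 TPM in H182, against 0, 0.14 and 0.06 TPM in DMSO, and was not tested.

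The HIF and hypoxia members together had a median change of 0.26 in TPM (0.36 with median-of-ratios scaling), and the glucose and lactate members -0.11 in TPM (-0.01 with that scaling). In the first group 5 of 13 tested rose and none fell by limma, although 2 were lower at an unadjusted p under 0.05. In the second, 2 of 25 rose and 9 fell. Over all genes tested 5.3% rose and 18.7% fell, and the 2 rises in the second group lie near that share. The 9 falls of the second group lie above the 18.7%. With median-of-ratios scaling 0 of its genes were called lower, against 6.78% of all genes. The members were chosen with earlier results of these data known, and these counts describe the lists without a test between them.

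Ratios of related genes within a library do not depend on its scaling, and 15 were compared. In 6 the H182 libraries lay above all DMSO libraries, in 4 below, and in 5 the groups overlapped. Among single genes tested, 8.67% lay wholly above and 32.7% wholly below in TPM. No such share was taken over other gene pairs, so these counts only describe the pairs listed. PFKL and PFKFB3 each enter more than 1 pair, so the pairs are not independent. With 3 libraries per group the exact two-sided permutation test cannot give a p below 0.1, and the 10 separated ratios reached that value (adjusted p = 0.15 over the 15), so none can pass. The largest separated ratio change was SLC2A3 to SLC2A1, at 2.44 on the log2 scale, followed by PFKFB3 to PFKFB4 at 0.85. ENO2 to ENO1 changed by 0.32, with ratios of 0.0256 ± 0.00274 in H182 and 0.0204 ± 0.000299 in DMSO. P4HA2 to P4HA1 was 1.2 ± 0.0605 in H182 and 1.02 ± 0.0924 in DMSO, and BNIP3L to BNIP3 was 0.656 ± 0.0224 in H182 and 0.732 ± 0.0494 in DMSO. PFKP to PFKL was 4.03 ± 0.211 in H182 and 4.44 ± 0.0541 in DMSO.

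**Figure D4:**
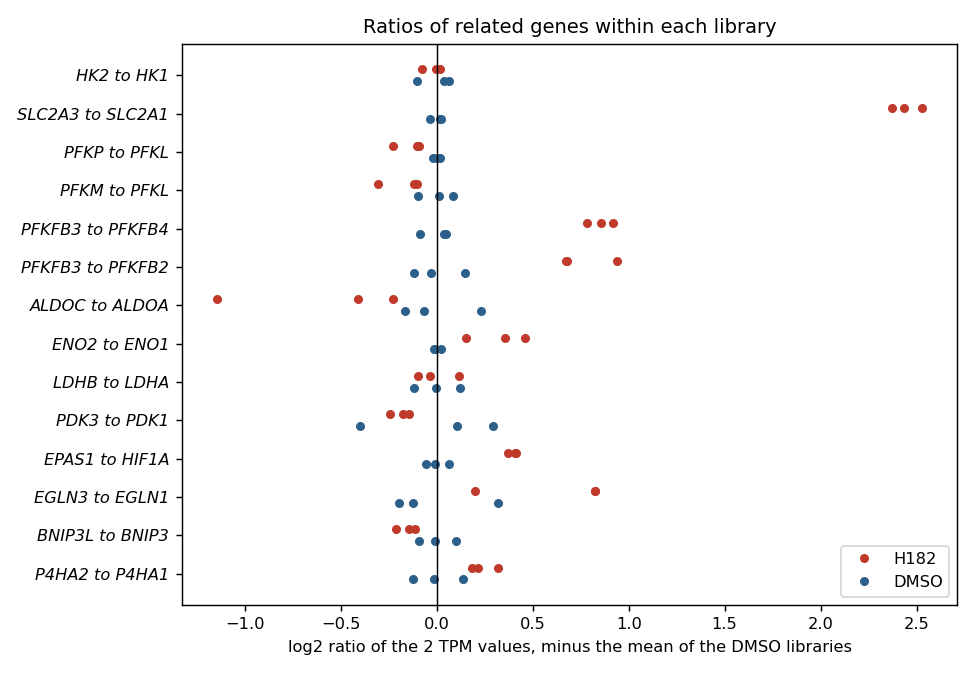
Log2 ratio of the TPM of 2 related genes in each library, minus the mean over the DMSO libraries, for 14 of the 15 pairs (the pair with SLC16A1 is left out because that gene is below 1 TPM). Points are single libraries, H182 above DMSO in each row; SLC2A3 to SLC2A1 and the 2 PFKFB3 ratios are separated most to the right.

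Other genes of the pathways, from lists that do not overlap the 40, gave the setting. Of 25 tested genes of glucose and pyruvate metabolism, none rose by limma and 9 fell, against 5.3% and 18.7% of all genes tested. None had an unadjusted p under 0.05 on the higher side. With median-of-ratios scaling 1 rose and 2 fell, against 7.88% and 6.78% of all genes. PDK4, below the filter and not tested, had 1.07 to 1.36 TPM in H182, against 0.21 to 0.48 TPM in DMSO. PDP1, the phosphatase that reactivates pyruvate dehydrogenase, fell by 0.75 on the log2 scale, to 24.8 ± 2.69 TPM in H182, against 42.3 ± 3.05 TPM in DMSO (adjusted p = 0.000317). ENO3, the muscle enolase, fell by 0.62, to 13 ± 0.402 TPM in H182, against 20.6 ± 2.38 TPM in DMSO. Both passed with median-of-ratios scaling. PDHX, a structural subunit of pyruvate dehydrogenase, fell by 0.33 and the phosphoglucomutase gene PGM1 by 0.22, neither past the threshold with median-of-ratios scaling.

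Of 16 tested genes of the pentose phosphate and hexosamine pathways, which branch from glycolysis, 3 rose and 3 fell. Among all genes tested, 5.3% rose and 18.7% fell, so the 3 falls lie near the background share. The 3 that rose, GFPT2, UAP1 and OGT, act in the hexosamine route to protein glycosylation, as does GNPNAT1, which fell in TPM. GFPT2, its entry enzyme, had 13.9 ± 3.80 TPM in H182 and 5.35 ± 0.287 TPM in DMSO (log2 change 1.2, adjusted p = 0.00126, limma). UAP1, which makes UDP-N-acetylglucosamine, had 282 ± 8.84 TPM in H182 and 201 ± 5.59 TPM in DMSO (0.49), and OGT, the transferase that uses it, 64 ± 6.35 TPM in H182 and 53.5 ± 3.40 TPM in DMSO (0.25). The OGT call was near the threshold (adjusted p = 0.0412, limma), and 2 to 3 genes of the list rose when single libraries were left out. The other entry enzyme, GFPT1 (-0.06), PGM3 (0.06) and MGEA5 (0.08), which removes the sugar that OGT adds, did not pass. The falls of RPE (-0.28), GNPNAT1 (-0.23) and PRPS1 (-0.22) were lost with median-of-ratios scaling, where none was called lower and 1 gene of the list had an unadjusted p under 0.05 on that side.

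Of 17 tested HIF pathway regulators, 3 rose and 2 fell, against 5.3% and 18.7% of all genes tested. The falls do not exceed that background share. SIAH2, a ubiquitin ligase that degrades prolyl hydroxylases, had 24.4 ± 1.32 TPM in H182 and 13.4 ± 0.592 TPM in DMSO (log2 change 0.82, adjusted p = 6.02e-05, limma). CITED2, which competes with HIF for the coactivators CREBBP and EP300, rose by 0.55, to 522 ± 14.1 TPM in H182, against 356 ± 6.68 TPM in DMSO. CREBBP rose by 0.25 (adjusted p = 0.033, limma). Higher genes of this list numbered 2 at a threshold of 0.01, 2 with the replicate block and 2 to 3 without single libraries. ARNT2, an alternative HIF partner, fell by 0.66, and CUL2, a scaffold of the VHL ligase, fell by 0.21, and the CUL2 call was lost with median-of-ratios scaling. The HIF partner ARNT (0.04), VHL (-0.18) and HIF1AN (-0.18) did not pass.

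In a wider list of genes reported to rise in hypoxia, 13 of 48 tested rose, 7 fell and 28 did not pass, and the median change was -0.04. The share that rose lies above the 5.3% of all genes, and the share that fell does not exceed the 18.7% of all genes. The list was chosen with earlier results of these data known, so these shares describe it and the difference was not tested. Its higher genes numbered 9 at a threshold of 0.01, 11 with the replicate block and 9 to 13 without single libraries. With median-of-ratios scaling they numbered 14. DDIT4 (5.48), DUSP1 (5.03), INSIG1 (2.63) and PPP1R3C (1.66) had the largest rises on the log2 scale, of which DDIT4 and DUSP1 also answer to other stresses. PPP1R3C passed the filter through H182, at 4.94 ± 0.0321 TPM in H182 and 0.883 ± 0.188 TPM in DMSO. The largest falls were TFRC, the transferrin receptor (-0.43), AK4 (-0.38), the lipid droplet gene HILPDA (-0.37) and MET (-0.26), and those of HILPDA and MET were lost with median-of-ratios scaling. The established hypoxia genes ANGPTL4 (0.26), LOX (-0.13), STC1 (0.07) and FAM162A (-0.04) did not pass.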

How the data were processed

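The table held TPM per gene and library, made and deposited by the authors and rounded to 2 decimals. The submitters' processing notes name RSEM 1.2.25, STAR 2.5.0 and GRCh38, and per the labels' protocols the libraries were stranded and poly-A selected. The annotation and strand setting are not given in the sources used here. TPM keeps no read numbers, so depth is unknown and no counting interval was made. Of 27567 rows, 92 spike-in rows at 0 and 24 second rows of genes shared by X and Y were left out. H182 was compared with DMSO by limma 3.58.1 in R 4.3.3 on log2(TPM + 1), a pseudocount of 1, which understates changes of low genes, with a mean-variance trend, two-sided. The test was tried on simulated data with planted changes of at least 2-fold and no shift in library scaling. These changes exceed the falls and several of the rises described, so the simulation does not bear on those. Rose and fell are used for genes past an adjusted p of 0.05. Coordinates are from GENCODE 29 (40 of 40 IDs matched, 28 with the same version), promoters from RefSeq. Members past the threshold are given in full and the others by range; of each wider list, up to 4 genes per direction with the largest change. Members and lists were chosen with earlier results of these data known. Alternatives covered scaling, pseudocount, filter, threshold, library weights, the variance trend, a block by replicate number and the omission of each library. Figures used matplotlib 3.10.9 in Python 3.11.15.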

Additional observations from a re-analysis of the deposited data

How the results depend on the processing

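The 7 rises among the 40 genes held under all 18 alternatives, and the falls depended on which scaling was used. Genes called lower among the members numbered 9, against 0 with median-of-ratios scaling, 8 with quantile normalization (GAPDH and LDHA gained, HK1, PFKP and ALDOA lost), 5 with totals taken without HSPA1A, HSPA1B and DNAJB1, 3 without the variance trend and 4 at a threshold of 0.01. Their median change of -0.06 turned to 0.0477 with median-of-ratios scaling. Leaving out single libraries gave 5 to 10 lower members, with 5 without DMSO replicate 2 and 5 without DMSO replicate 3.

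Over all genes, 2304 were lower in TPM, 833 with median-of-ratios scaling, 1261 with quantile normalization, 1496 with the reduced totals, 998 at a threshold of 0.01 and 1407 to 2205 without single libraries (1486 without H182 replicate 2, 1407 without DMSO replicate 2). Lower genes of the wider lists, in the order median-of-ratios, quantile, reduced totals, no trend and threshold 0.01, numbered 2, 3, 4, 4 and 3 for glucose and pyruvate (9 in TPM), 0, 1, 1, 1 and 0 for pentose phosphate and hexosamine (3 in TPM, and 1 without a filter), and 2, 3, 4, 4 and 1 for hypoxia-induced genes (7 in TPM). HIF regulators had 1 lower with median-of-ratios, quantile and threshold 0.01, against 2 in TPM. Without single libraries these lists had 4 to 9, 0 to 3, 4 to 6 and 1 to 3 lower. Higher glucose and pyruvate genes numbered 0 in TPM, 1 with no filter, median-of-ratios or quantile, and 0 to 1 without single libraries (1 without DMSO replicate 3).

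Replicate numbers did not pair the libraries: the correlations of same-numbered deviations were -0.01, 0.00 and -0.04, and 0 H182 libraries correlated best with their own number. With the replicate block 7 members were higher and 9 lower, and over all genes 625 higher and 2059 lower; PFKP lost its call (adjusted p = 0.0517) and SLC16A3 gained one (0.0327). Depth is unknown, so no detection limit can be set for CA9 or SLC16A1.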
